A study of Mus musculus with 48 samples.

Results

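The 10 genes described here encode splicing factors of the SR family and are grouped by their poison exons: Srsf1, Srsf2, Srsf3, Srsf4, Srsf5, Srsf6, Srsf7, Srsf9, Srsf10 and Srsf11. They were chosen by name and found in the gene tables of RNA-seq and Ribo-seq through their Ensembl identifiers, as 10 of the 55335 genes in those tables. All 10 passed the filter on low values in every fit. SR proteins bind exonic RNA through RNA recognition motifs and recruit the spliceosome through domains rich in arginine and serine. Many of their genes hold a poison exon, a cassette exon with a stop codon in frame, and high levels of an SR protein can favour inclusion of the poison exon of its own gene and thereby limit its output. Transcripts that include such an exon are degraded by nonsense-mediated decay (NMD), which needs translation, so the translation inhibitor cycloheximide (CHX) lets NMD substrates persist.

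The study examined NRDE2, a protein of nuclear speckles, together with the RNA helicase MTREX and the splicing-linked protein CCDC174, in mouse embryonic stem cells (mESCs). Values per gene exist for 28 RNA-seq libraries in 14 groups and for 4 Ribo-seq libraries in 2 groups, with 2 replicates in each group. Ribo-seq counts fragments of RNA protected by ribosomes. The other 16 samples of the series, from sequencing of RNA crosslinked to proteins, carry no values used here.

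All cells were mESCs of hybrid 129-C57BL/6 background in serum with LIF and 2i, and their parental lines held a Cre recombinase inducible by 4-hydroxytamoxifen (4OHT), either alone or beside the biotin ligase BirA. Nrde2-KO arose from conditional cells given 100 nM 4OHT for 4 days and Mtrex-KO from conditional cells given 100 nM for 3 days, and Nrde2-WT and Mtrex-WT are the same conditional cells without 4OHT. Nrde2d200 cells make NRDE2 without its amino-terminal region, Nrde2-D174R cells make NRDE2 with a point mutation, and neither received 4OHT. In Ccdc174-dTAG the degron-tagged CCDC174 was depleted over 24 hours by dTAG-13 at 500 nM, and Ccdc174-WT is the same tagged line without dTAG-13. CHX was given at 0.1 mg/ml for 4 hours to Nrde2-WT, Nrde2-KO, Ccdc174-WT and Ccdc174-dTAG. Nrde2-WT and Nrde2-KO were sequenced without CHX in 2 experiments, and the second also holds the CHX libraries. The engineered lines are picked clones, and the labels do not say how many clones stand behind a genotype or its replicates.

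RNA-seq libraries held 28683644 to 36272309 reads in genes and Ribo-seq libraries 3475051 to 5035940. Levels below are CPM (reads per gene scaled to the total of the library) divided by a size factor for each library, given as replicate 1 and replicate 2, and differences are log2 fold changes from limma with their standard error (SE). A difference passed where the p adjusted over all genes tested was below 0.01. With 2 libraries a group, these p-values measure only the spread between libraries, whose cultures may not be separate. The 2 Mtrex-KO libraries stood apart from each other: their squared difference over the counting variance averaged 98.4 per gene, against at most 42.9 in the other groups. RNA from fewer cells of a type and less RNA per cell cannot be told apart in bulk libraries.

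The cell type label was checked on 8 mESC markers, among them Nanog, Sox2, Tfcp2l1, Esrrb and Zfp42. All 8 were above 0 in every group, and their summed level in Nrde2-WT of the first experiment was 5598 and 5836 CPM, with Tfcp2l1 the most abundant. Markers of fibroblasts, which serve as feeder cells, summed to 2.11 and 1.89 CPM in the same libraries, with Thy1 the most abundant.

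The targeted genes were checked first. Nrde2 RNA stood at 41.3 and 40.3 CPM in Nrde2-WT and 19.2 and 20.3 in Nrde2-KO of the first experiment, and the groups did not overlap, their log2 fold change being -1.04 (adjusted p 3.54e-07, SE 0.09). In the second experiment without CHX it stood at 53.3 and 51.9 in Nrde2-WT against 19.8 and 19.6 in Nrde2-KO, a log2 fold change of -1.40 (adjusted p 1.6e-08, SE 0.09). Nrde2 in Ribo-seq stood at 12.2 and 14.2 CPM in WT and 2.33 and 3.24 in Nrde2-KO, lower in both libraries, with -2.16 (adjusted p 3.41e-07, SE 0.22). With CHX, Nrde2 RNA stood at 242 and 224 CPM in Nrde2-WT and 257 and 249 in Nrde2-KO, so its level with CHX does not tell these genotypes apart and does not check those labels. Mtrex RNA stood at 118 and 111 CPM in Mtrex-WT and 46.2 and 41.3 in Mtrex-KO, with -1.39 (adjusted p 8.55e-10, SE 0.09). dTAG-13 acts on the protein, so the Ccdc174 mRNA level checks nothing about its depletion.

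Annotation was used to check which members carry a poison exon. GENCODE M21 lists NMD transcripts for 9 of the 10 genes and none for Srsf10. In 6 genes an NMD transcript includes an internal exon that overlaps no exon of the basic coding transcripts and holds the stop codon: Srsf3, Srsf4, Srsf6, Srsf7, Srsf9 and Srsf11. Srsf1, Srsf2 and Srsf5 have NMD transcripts without such an exon, and for these 3 and Srsf10 the label rests on outside knowledge. The tables give reads per gene, so inclusion of poison exons was not measured, and a gene's level sums productive and unproductive transcripts.

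The 7 stop-containing cassette exons of these 6 genes measured 109 to 460 bases, and their last coding bases are shown because the stop codon in them is what defines a poison exon. Each is given 5′ to 3′ on the gene's strand from the GRCm38 genome, with the in-frame stop codon in capitals. The exon of Srsf3 lies at chr17:29039454-29039909 (plus strand), that of Srsf7 at chr17:80204622-80205081 (minus), that of Srsf4 at chr4:131884276-131884482 (plus), that of Srsf6 at chr2:162932815-162933082 (plus) and that of Srsf9 at chr5:115328347-115328704 (plus). Srsf11 has exons at chr3:158024123-158024231 and chr3:158023243-158023359 (minus), of which the first lies upstream.
Srsf3: atcatgtctcttctcaccaccctcTGA
Srsf7: tttcttcgtttgagtcagtcgcctTGA
Srsf4: acccggttgtctcatgccccagctTAG
Srsf6: atgacgacagcagccttttgccatTAG
Srsf9: gggttggagattacggattcacagTAG
Srsf11 upstream exon: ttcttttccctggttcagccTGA
Srsf11 downstream exon: gttcataaaacagcttttgaaagtTGA
The stop came 20 bases into the upstream Srsf11 exon and 149 bases into the Srsf6 exon, the shortest and longest distances of the 7. TGA was the stop in Srsf3, Srsf7 and both Srsf11 exons, and TAG in Srsf4, Srsf6 and Srsf9.

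The 5′ splice sites of the same exons are shown because the study deals with weak 5′ splice sites, with the last 3 exon bases, the first 2 intron bases in capitals and 4 further intron bases. Over 190013 donors of principal coding transcripts the most frequent bases were cagGTaagt, and the median donor matched 6 of these 9 bases.
Srsf3 donor: ctaGTaagt
Srsf7 donor: aagGTttat
Srsf4 donor: gagGTtaga
Srsf6 donor: gatGTaagt
Srsf9 donor: gagGTtagt
Srsf11 upstream exon donor: attGTatgt
Srsf11 downstream exon donor: cagGTgatg
The poison exons of Srsf7 and the upstream exon of Srsf11 matched 5 of 9 bases, those of Srsf4 and the downstream exon of Srsf11 matched 6, and those of Srsf3, Srsf6 and Srsf9 matched 7. Among the 54 donors of the members' principal transcripts 9 (16.7%) matched 5 or fewer, beside 16.9% of all donors. Srsf10 holds the member donor with the fewest matches, 2 of 9, at the end of exon 2 (chr4:135858305-135858409), where the intron begins with AT, as in some introns of the minor spliceosome. A match count is a description of sequence and measures no use of a site.

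Levels were compared between genes per kb of exon in untreated Nrde2-WT of the first experiment, where each gene's level is its normalised CPM over the length of all its annotated exons. Srsf1, the SR protein with the longest record as a splicing activator, had the highest level at 153 and 168 CPM per kb, followed by Srsf2, a core protein of nuclear speckles, at 102 and 127. That order holds for this experiment: in untreated Nrde2-WT of the second Srsf2 stood at 168 and 196 and Srsf1 at 153 and 178, which overlap, and the mean of Srsf2 was above that of Srsf1 in all 8 groups of the CHX experiments. Srsf7 stood at 84.6 and 90.4 and Srsf6 at 62.0 and 72.8 CPM per kb. Replicates of these 4 did not overlap in the first experiment. Srsf9 (37.9 and 42.9) overlapped both Srsf5 (41.6 and 44.9) and Srsf3 (35.7 and 38.7), which did not overlap each other, Srsf11 followed at 24.1 and 24.5, and Srsf10 (15.3 and 16.9) and Srsf4 (16.7 and 13.6) overlapped at the low end. Gene levels on this scale depend on annotated exon length, of which coding bases make up 6.23% in Srsf3 and 41.4% in Srsf4, the lowest and highest shares.

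Across the 14 RNA-seq groups the highest group mean was 2.45 times the lowest for Srsf7, from 203 CPM in Mtrex-KO to 497 in Nrde2-KO of the second experiment. That ratio lay between 1.72 and 2.07 for Srsf1, Srsf2, Srsf3, Srsf4, Srsf5, Srsf6 and Srsf9. Srsf11 and Srsf10 varied least, with ratios of 1.31 and 1.28. The level was also averaged over the members after scaling each to its own mean and spread, in SDs from each gene's mean. It was highest in Ccdc174-dTAG without CHX (1.00) and lowest in Mtrex-KO (-1.07). Untreated controls stood apart too: 0.77 in Ccdc174-WT, 0.76 and -0.13 in Nrde2-WT of the second and first experiments, and -0.42 in Mtrex-WT. Srsf7 averaged 277 CPM in Mtrex-WT and 451 in untreated Nrde2-WT of the second experiment. These ranges thus span experiments and do not give effects of genotype.

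Whether 4 hours of CHX moved the members' RNA was asked in 4 conditions, called lines here. Nrde2-WT and Nrde2-KO are the same conditional line without and with 4OHT. Ccdc174-WT and Ccdc174-dTAG are the same tagged line without and with dTAG-13. The 4 CHX effects share no libraries but share an estimate of the spread, and they do not come from 4 separate cell lines. In Nrde2-WT, Srsf5, Srsf6 and Srsf9 fell and Srsf11 rose: 1 member was higher and 3 lower of 10, while 25.1% of the 15133 genes tested were higher and 22.4% lower. In Nrde2-KO 2 were higher and 6 lower, and 26.3% of the 15133 genes tested were higher and 22.5% lower. Ccdc174-WT had 1 higher and 7 lower, and 25.4% of the 15133 genes tested were higher and 24.1% lower. In Ccdc174-dTAG 8 members fell, and 26.3% of the 15133 genes tested were higher and 24.1% lower. Srsf5, Srsf6 and Srsf9 fell in all 4 lines. The members' median log2 fold change was -0.27, -0.42, -0.43 and -0.65 in the 4 lines in this order, beside 0.00, 0.03, -0.01 and 0.02 over all genes. An effect that passed in some lines and not in others is not thereby shown to differ between them.

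**Figure D1:**
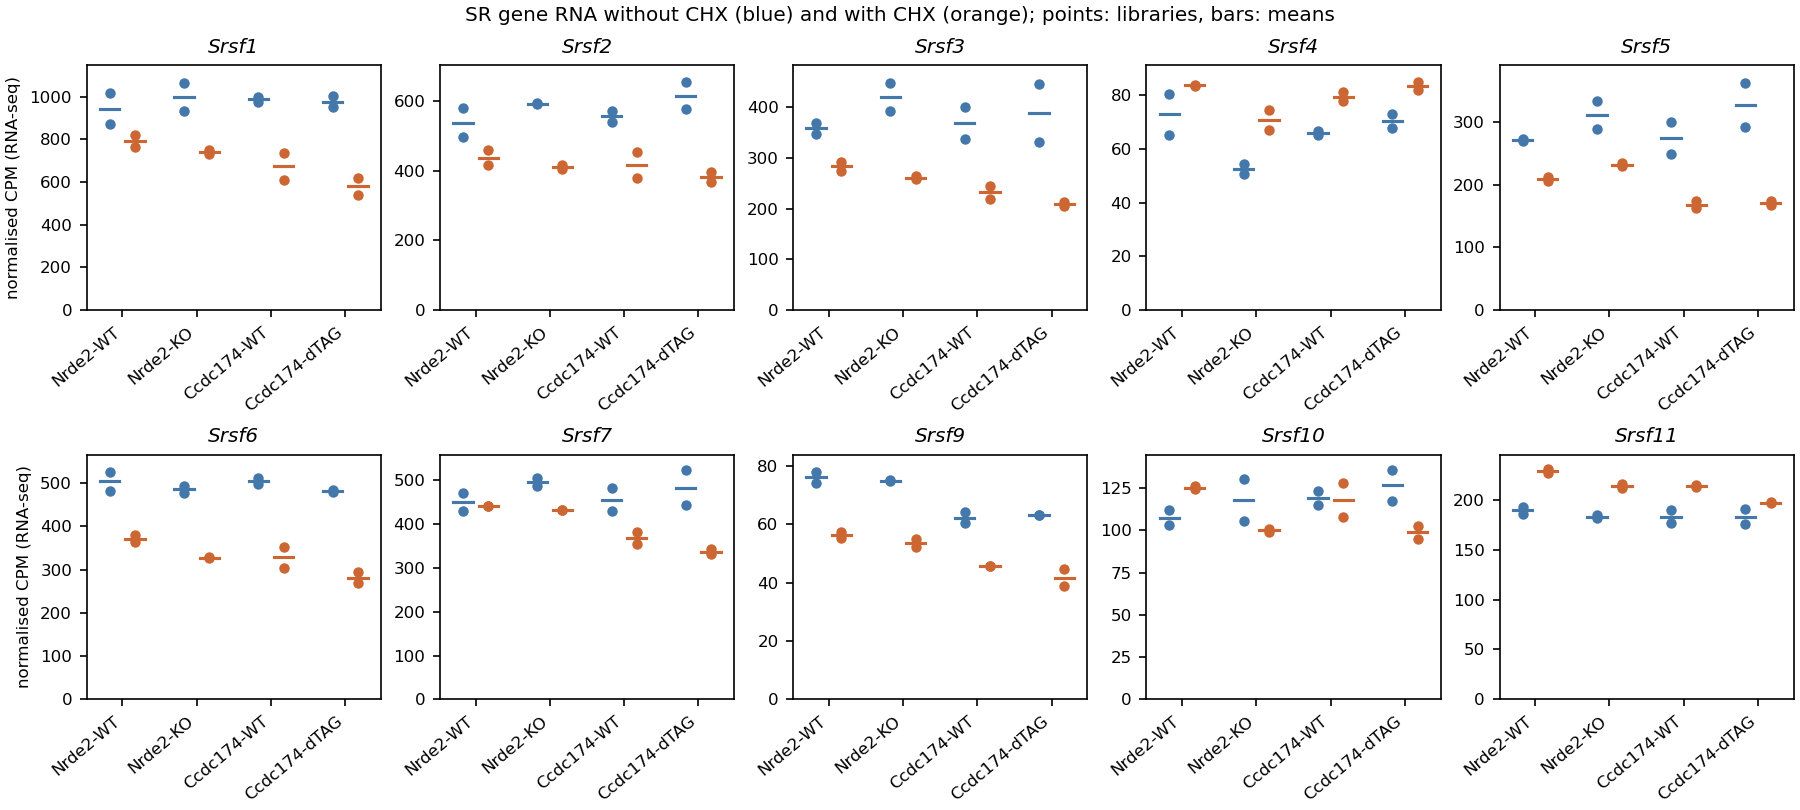
Normalised CPM of each member in the 4 lines without CHX (blue) and with CHX (orange), with a point per library, bars at the mean of 2 replicates and axes from 0. Srsf6 lies between 268 and 379 CPM in the 8 libraries with CHX and between 477 and 526 in the 8 without.

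Among SR proteins with a pair of RNA recognition motifs, Srsf6 stood at 482 and 526 CPM in untreated Nrde2-WT, 477 and 494 in untreated Nrde2-KO, 497 and 511 in untreated Ccdc174-WT and 484 and 479 in untreated Ccdc174-dTAG. It stood at 363 and 379, then 326 and 329, then 353 and 305 and then 294 and 268 with CHX, in the same order of lines. All 8 CHX libraries lay below all 8 untreated libraries. Its log2 fold changes were -0.44, -0.57, -0.62 and -0.78 (SE 0.07 each, adjusted p 0.000121, 1.14e-05, 4.35e-06 and 4.6e-07). Srsf9, a small relative of Srsf1, stood at 74.1 and 77.9 CPM in untreated Nrde2-WT, 74.7 and 75.2 in untreated Nrde2-KO, 60.4 and 64.1 in untreated Ccdc174-WT and 63.2 and 63.1 in untreated Ccdc174-dTAG. It stood at 55.1 and 57.3, then 55.0 and 52.1, then 45.5 and 45.8 and then 44.6 and 38.7 with CHX. No CHX library overlapped the untreated libraries of its line, and the log2 fold changes were -0.43, -0.48, -0.44 and -0.60 (SE 0.07 each, adjusted p 0.000134, 4.68e-05, 9.52e-05 and 5.25e-06).

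Srsf5, a member whose RNA is known to respond quickly to growth signals, stood at 274 and 269 CPM in untreated Nrde2-WT, 289.6 and 333 in untreated Nrde2-KO, 249 and 299.7 in untreated Ccdc174-WT and 292 and 362 in untreated Ccdc174-dTAG. It stood at 213 and 206, then 235 and 229, then 173.8 and 162 and then 173.8 and 167 with CHX. Groups did not overlap within any line, and the lowest CHX levels were those of the Ccdc174 lines. The log2 fold changes of Srsf5 were -0.37, -0.42, -0.70 and -0.93 (SE 0.10 each, adjusted p 0.0049, 0.00211, 2.61e-05 and 1.58e-06), which for Ccdc174-dTAG leaves 0.524 of the untreated level. Srsf1 stood at 872 and 1018 CPM in untreated Nrde2-WT, 931 and 1066 in untreated Nrde2-KO, 1000.9 and 974 in untreated Ccdc174-WT and 952 and 1001.4 in untreated Ccdc174-dTAG. It stood at 762 and 819, then 734 and 751, then 737 and 611 and then 621 and 539 with CHX. Within each line the CHX libraries of Srsf1 were below the untreated ones. Its log2 fold changes were -0.25, -0.43, -0.56 and -0.75 (SE 0.10 each, adjusted p 0.043, 0.00214, 0.000241 and 1.48e-05). So it fell in all lines but Nrde2-WT, where it passed as lower with the replicate number as a block.

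Srsf3 and Srsf7 share a single RNA recognition motif and act as adaptors of mRNA export. Srsf3, the smallest SR protein, stood at 347 and 370.1 CPM in untreated Nrde2-WT, 392 and 448 in untreated Nrde2-KO, 338 and 401 in untreated Ccdc174-WT and 332 and 446 in untreated Ccdc174-dTAG. It stood at 275 and 292, then 259 and 264, then 245 and 220.0 and then 214 and 206 with CHX. Its untreated replicates were spread widely in Ccdc174-dTAG, yet within each line the CHX libraries of Srsf3 lay below the untreated ones. The log2 fold changes of Srsf3 were -0.34, -0.68, -0.67 and -0.87 (SE 0.12 each, adjusted p 0.021, 0.000135, 0.000159 and 1.26e-05). It fell in all lines but Nrde2-WT, where the replicate block passed it as lower. Srsf7 stood at 471 and 431 CPM in untreated Nrde2-WT, 488 and 506 in untreated Nrde2-KO, 429.7 and 483 in untreated Ccdc174-WT and 443 and 523 in untreated Ccdc174-dTAG. It stood at 442 and 441, then 433 and 434, then 382 and 354 and then 343 and 332 with CHX. The CHX and untreated libraries of Srsf7 overlapped in Nrde2-WT and were separate in the other 3 lines. Its log2 fold changes were -0.03, -0.20, -0.31 and -0.51 (SE 0.08 each, adjusted p 0.768, 0.0465, 0.00415 and 6.6e-05), and it fell in both Ccdc174 lines. In Nrde2-WT the log2 fold change of Srsf7 turned to 0.18 with CPM as deposited.

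Srsf2 stood at 496 and 580.4 CPM in untreated Nrde2-WT, 592 and 593 in untreated Nrde2-KO, 541 and 572 in untreated Ccdc174-WT and 655 and 576 in untreated Ccdc174-dTAG. It stood at 416 and 459, then 417 and 405, then 454 and 380.3 and then 395 and 367 with CHX. All CHX libraries of Srsf2 lay below the untreated ones of their line, and the log2 fold changes were -0.30, -0.53, -0.42 and -0.69 (SE 0.10 each, adjusted p 0.0145, 0.000223, 0.00136 and 1.82e-05). They passed in all lines but Nrde2-WT, where Srsf2 passed as lower with the replicate block.

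Srsf11 and Srsf4 had estimates above 0 in all 4 lines. Srsf11, an SR-like protein that interacts with the splicing factor U2AF, stood at 186 and 193 CPM in untreated Nrde2-WT, 182 and 184 in untreated Nrde2-KO, 189.9 and 176 in untreated Ccdc174-WT and 175 and 191 in untreated Ccdc174-dTAG. It stood at 226 and 231, then 212 and 216, then 215 and 213 and then 196 and 198 with CHX. Every CHX library of Srsf11 lay above the untreated libraries of its line. The log2 fold changes of Srsf11 were 0.27, 0.22, 0.23 and 0.11 (SE 0.06 each, adjusted p 0.00123, 0.00449, 0.00416 and 0.134), so it rose in all lines but Ccdc174-dTAG. Srsf4, the longest classical SR protein, stood at 80.5 and 65.3 CPM in untreated Nrde2-WT, 54.2 and 50.8 in untreated Nrde2-KO, 66.6 and 65.1 in untreated Ccdc174-WT and 73.0 and 67.7 in untreated Ccdc174-dTAG. It stood at 83.4 and 83.9, then 74.4 and 67.1, then 77.8 and 81.1 and then 81.8 and 85.1 with CHX. CHX libraries of Srsf4 lay above the untreated ones of each line. Its log2 fold changes were 0.20, 0.43, 0.27 and 0.25 (SE 0.09 each, adjusted p 0.0571, 0.000692, 0.0153 and 0.0248), and it rose in Nrde2-KO, the line with the lowest untreated level. The replicate block also passed Srsf4 as higher in both Ccdc174 lines.

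Srsf10, which acts as a general splicing repressor when dephosphorylated, stood at 103 and 112 CPM in untreated Nrde2-WT, 106 and 130.2 in untreated Nrde2-KO, 115 and 124 in untreated Ccdc174-WT and 118 and 136 in untreated Ccdc174-dTAG. It stood at 126 and 125, then 100.8 and 99.4, then 128 and 108 and then 103 and 94.9 with CHX. CHX libraries of Srsf10 lay above the untreated ones in Nrde2-WT, overlapped them in Ccdc174-WT and lay below them in Nrde2-KO and Ccdc174-dTAG. The log2 fold changes were 0.22, -0.23, -0.02 and -0.35 (SE 0.10 each, adjusted p 0.0766, 0.0646, 0.891 and 0.00751), and Srsf10 fell in Ccdc174-dTAG. In Ccdc174-WT its near-zero estimate changed sign with CPM as deposited (0.21) and with edgeR (0.02).

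Single libraries set several of these counts. Without replicate 2 of the CHX libraries, 2 members passed in Nrde2-WT, against 4 with all libraries. There the call of Srsf5 was lost without any 1 of the 4 libraries (adjusted p 0.0195 to 0.0323), and that of Srsf11 without replicate 2 with CHX (0.0124) or replicate 1 without CHX (0.0141). In Nrde2-KO 8 members passed, but 4 without CHX replicate 1, 5 without CHX replicate 2 and 5 without untreated replicate 2. The calls lost in these 3 fits were those of Srsf1 (adjusted p up to 0.0308), Srsf5 (up to 0.0323), Srsf11 and, without CHX replicate 1, Srsf4 (0.0148). Srsf11 lost its call there without any 1 of the 4 libraries (0.0142 to 0.0348), and without untreated replicate 1 Srsf10 passed as lower in its place (0.00874). In Ccdc174-WT 8 passed with all libraries and 5 without replicate 2 of either the CHX or the untreated libraries, the calls lost being Srsf2 (adjusted p up to 0.0315), Srsf7 (up to 0.0634) and Srsf11 (up to 0.0567). In Ccdc174-dTAG Srsf10 lost its call without 1 of 3 libraries (up to 0.0841). Srsf6 and Srsf9 kept theirs in every line whichever library was left out. Srsf11 in Ccdc174-WT lost its call without CHX replicate 1 as well. Without untreated replicate 1 of Nrde2-WT, Srsf2 and Srsf4 gained a call in that line.

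Other settings moved further calls of the CHX effects. No filter on low values ended those of Srsf5 in Nrde2-WT (0.0214) and Nrde2-KO (0.0104), Srsf7 in Ccdc174-WT (0.0139) and Srsf10 in Ccdc174-dTAG (0.029, all adjusted p). edgeR also ended that of Srsf10 in Ccdc174-dTAG (0.0139) and passed Srsf4 in Ccdc174-WT (0.00957). DESeq2 ended that of Srsf11 in Nrde2-KO (0.0229) and passed Srsf2 (0.00311) and Srsf3 (0.00696) in Nrde2-WT. Fits of the compared libraries alone ended the calls of Srsf11 in Nrde2-KO (0.0217) and Ccdc174-WT (0.0114) and Srsf10 in Ccdc174-dTAG (0.0112), and passed Srsf3 in Nrde2-WT (0.00317) and Srsf4 in Ccdc174-WT (0.00558). With the replicate number as a block 7 members passed in Nrde2-WT, adding Srsf1 (0.0089), Srsf2 (0.00404) and Srsf3 (0.0089) as lower, while 28% of genes were higher and 26% lower. The block also passed Srsf4 as higher in Ccdc174-WT (0.00444) and Ccdc174-dTAG (0.00802), where it passed 28% of genes as higher and 27% as lower, and 29% and 27%.

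The split of all genes under CHX depended on the scaling. With CPM as deposited, without size factors, the median over all genes moved to 0.20, 0.20, 0.21 and 0.24 in the 4 lines in the order above. Genes higher and lower became 5234 and 1639 in Nrde2-WT, and the higher share of passed genes was 76.2% against 52.8% with size factors. In Nrde2-KO they became 5300 and 2026 (72.3% against 53.9%), in Ccdc174-WT 5447 and 1764 (75.5% against 51.4%) and in Ccdc174-dTAG 5663 and 1832 (75.6% against 52.2%). On that scale 4, 6, 6 and 9 members passed, of which 3, 2, 2 and 2 were higher, and Srsf6 still fell in every line. With CPM as deposited Srsf9 no longer passed in Nrde2-WT (adjusted p 0.0185) or Ccdc174-WT (0.0234), and neither did Srsf5 in Nrde2-WT (0.183) or Nrde2-KO (0.0552). Srsf10 (log2 0.43) and Srsf4 (0.41) then passed as higher in Nrde2-WT. Calls were also lost there by Srsf1 in Nrde2-KO (adjusted p 0.0306), Srsf2 (0.0744) and Srsf7 (0.456) in Ccdc174-WT and Srsf10 in Ccdc174-dTAG (0.312). Srsf4 in turn passed as higher in Ccdc174-WT (0.50) and Ccdc174-dTAG (0.48) and Srsf11 in Ccdc174-dTAG (0.34).

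Whether the CHX effect differed with NRDE2 was tested as the effect in Nrde2-KO minus that in Nrde2-WT. Of the members 0 passed in limma, 1 had an unadjusted p under 0.05, and edgeR and DESeq2 passed 0 and 0, while 0.416% of the 15133 genes tested were higher and 0.0991% lower. Srsf10 had the largest difference, -0.45 (SE 0.15, 95% interval -0.76 to -0.14, p 0.00742, adjusted p 0.146). Srsf3 followed with -0.35 (95% interval -0.70 to 0.00), and Srsf4 had the highest, 0.22 (-0.04 to 0.49). For Ccdc174-dTAG minus Ccdc174-WT, 0 members passed in limma, 1 had an unadjusted p under 0.05, and edgeR and DESeq2 passed 0 and 0, and 0.211% of the 15133 genes tested were higher and 0.0396% lower. With the replicate block neither test passed a member in limma, while 1.2% of genes were higher and 0.46% lower in the first and 0.44% and 0.13% in the second. The Ccdc174 differences ran from -0.34 in Srsf10 (95% interval -0.65 to -0.03) to -0.02 in Srsf4 (-0.29 to 0.24).

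With CHX present in both groups, Srsf10 and Srsf4 were lower in Nrde2-KO than in Nrde2-WT. Srsf10 stood at 126 and 125 CPM in Nrde2-WT with CHX and 100.8 and 99.4 in Nrde2-KO with CHX, without overlap, and its log2 fold change was -0.32 (adjusted p 0.00485, SE 0.07). Srsf4 stood at 83.4 and 83.9 against 74.4 and 67.1 CPM, also without overlap, with -0.24 (adjusted p 0.00692, SE 0.06). These were 2 lower of 10 members, while 12.5% of the 15476 genes tested were higher and 15.4% lower. With the replicate block 4 passed, adding Srsf6 as lower (0.000642) and Srsf5 as higher (0.00281), while 20% of genes were higher and 22% lower. No filter on low values ended both calls (adjusted p 0.0361 for Srsf10), and CPM as deposited (0.0158) and a fit of the compared libraries alone (0.0158) ended that of Srsf4. Other members lay between -0.18 and 0.15, the highest being Srsf5 (adjusted p 0.0319). Without CHX replicate 1 of Nrde2-KO 1 member passed, and without any other library of this comparison 0 did in limma, with the adjusted p of Srsf10 at 0.0192 to 0.0352. Markers of 2C-like cells, a state that resembles the early embryo, summed to 5.12 and 4.95 CPM in Nrde2-WT and 60.3 and 54.5 in Nrde2-KO with CHX, and 5 of 5 tested were higher, with Zscan4d the most abundant. The mESC markers summed to 3709.9 and 3703 against 3331 and 3268 CPM, with 1 higher and 3 lower of 8. Trophectoderm markers summed to 52.6 and 48.0 against 59.9 and 49.1, Krt8 the most abundant, with 2 higher and 1 lower of 5, and those of primitive endoderm to 15.0 and 13.8 against 21.2 and 17.5, with 1 higher and 1 lower of 5. Their part in the members' values was not tested.

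In Ccdc174-dTAG against Ccdc174-WT, both with CHX, 0 members passed in limma, 6 had an unadjusted p under 0.05, and edgeR and DESeq2 passed 0 and 1, and 3.19% of the 15476 genes tested were higher and 5.87% lower. The replicate block changes this: 4 then passed, all lower, Srsf1 (adjusted p 0.00031), Srsf3 (0.00823), Srsf6 (0.000187) and Srsf10 (0.000198), while 11% of genes were higher and 13% lower. DESeq2 passed Srsf10, which stood at 128 and 108 CPM in Ccdc174-WT against 103 and 94.9 in Ccdc174-dTAG, with replicates that did not overlap. Its log2 fold change in limma was -0.25 (adjusted p 0.0331, SE 0.07). Without replicate 2 of Ccdc174-WT with CHX 2 members passed in limma, Srsf10 (adjusted p 0.0048) and Srsf6 (0.00998). Of the 21 other SR and SR-related factors 4 rose in Nrde2-KO with CHX and 2 in Ccdc174-dTAG with CHX. Regulators of SR proteins had 3 higher and 3 lower in Nrde2-KO with CHX and 1 lower in Ccdc174-dTAG with CHX, Srpk1 in both (-0.36 and -0.34), and the other RNA-binding proteins had 1 higher, Rbm39, and 4 lower in Nrde2-KO with CHX. Rbm39, Tra2a and Tra2b are in the lists of SR-related factors and of RNA-binding proteins and count in both wherever these are given. Immediate early genes had 5 higher and 1 lower of 9 in Nrde2-KO with CHX and 3 lower in Ccdc174-dTAG with CHX, Egr1 (-1.76), Fos (-1.55) and Junb (-0.99). NMD factors had 4 higher and 1 lower of 10 against 1 higher and 1 lower, and the NMD substrates 2 higher and 1 lower of 8 against 3 higher, in the same order. With CHX the mESC markers summed to 2861 and 2955 CPM in Ccdc174-WT against 2851 and 2934 in Ccdc174-dTAG, most of all Zfp42, with Klf4 higher, and those of primitive endoderm to 10.9 and 10.04 against 11.04 and 12.4, with Gata4 higher. What these markers contribute to the members' values was not tested.

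Other gene groups of the pathway were read in the same 4 lines, in the order Nrde2-WT, Nrde2-KO, Ccdc174-WT and Ccdc174-dTAG. Of 8 known NMD substrates, 6, 6, 6 and 6 were higher and 1, 1, 2 and 1 lower, with median log2 fold changes of 1.24, 1.02, 1.18 and 0.95. Snhg1, a noncoding host of snoRNAs, stood at 114 and 114 CPM without CHX and 392 and 408 with it in Nrde2-WT, well apart, with log2 fold changes of 1.81, 1.48, 1.59 and 1.58 over the lines. Ddit3, a stress transcription factor, had 1.89, 1.97, 2.66 and 2.14, and Cdkn1a, an inhibitor of the cell cycle, fell by 2.04 in Nrde2-WT. Of the immediate early genes, which CHX is known to superinduce, 6, 6, 6 and 5 were higher and 0, 1, 0 and 1 lower of 8 tested. Egr1 had log2 fold changes of 5.80, 7.45, 5.51 and 3.47 and Fos 3.76, 4.56, 4.29 and 2.98. Of 10 NMD factors, some of them NMD targets themselves, 3, 3, 3 and 4 were higher and 0, 1, 0 and 2 lower, among them Smg9 (0.52, 0.70, 0.69 and 1.03) and Upf2 (0.34, 0.44, 0.31 and 0.34).

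Of the 21 other SR and SR-related factors, 4, 5, 3 and 3 were higher and 8, 7, 9 and 7 lower with CHX, with medians of -0.22, -0.12, -0.22 and -0.19. Rsrc2 had log2 fold changes of 0.91, 0.86, 0.78 and 0.61 and Luc7l3, a factor of U1 snRNP, -0.73, -0.91, -1.03 and -1.13. Of 12 kinases, phosphatases and import factors of SR proteins tested, 4, 4, 3 and 4 were higher and 3, 5, 5 and 5 lower. Clk4, a kinase of SR proteins whose own RNA is spliced unproductively, had 1.25, 1.37, 1.20 and 1.38, and its relative Clk3 0.72, 0.92, 0.88 and 1.14. Of 17 other RNA-binding proteins known for unproductive splicing of their own RNA, 3, 3, 2 and 2 were higher and 4, 3, 3 and 4 lower, with medians of -0.10, -0.06, -0.15 and -0.23. In that list Hnrnpa2b1, an hnRNP protein, had -0.48, -0.57, -0.59 and -0.75, and Ptbp2, the neuronal splicing repressor, 1.16, 0.43, 1.11 and 0.81.

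Cell type markers also moved with CHX. Of 8 mESC markers, 1, 1, 1 and 1 were higher and 5, 6, 7 and 7 lower. Their sum went from 5769 and 5582 CPM to 3709.9 and 3703 in Nrde2-WT, 4911 and 5071 to 3331 and 3268 in Nrde2-KO, 4509.6 and 4845 to 2861 and 2955 in Ccdc174-WT and 4472 and 4768 to 2851 and 2934 in Ccdc174-dTAG. Nanog, a pluripotency factor, had log2 fold changes of -1.15, -1.26, -1.25 and -1.42. Of the markers of primed epiblast and mesoderm, 1 was higher in each line, Otx2 (1.92, 2.20, 2.05 and 2.34), and their sum went from 35.0 and 30.3 CPM to 111 and 119 in Nrde2-WT. Of the 5 trophectoderm markers tested, 1, 1, 1 and 1 were higher and 2, 2, 2 and 1 lower. Of the primitive endoderm markers 1 was higher in each line but Ccdc174-dTAG, of the fibroblast markers 1 was higher in each line, and of the 2C-like markers 1 was lower, in Nrde2-KO. No defining mESC marker was at 0, and the part of these markers in the members' values was not tested.

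Without CHX the question was whether loss or mutation of NRDE2 moved the members. In Nrde2-KO of the first experiment 0 members passed in limma, 2 had an unadjusted p under 0.05, and edgeR and DESeq2 passed 0 and 0, while 7.64% of the 14889 genes tested were higher and 10.6% lower. Srsf4 stood at 59.3 and 48.5 CPM in Nrde2-WT and 48.1 and 34.0 in Nrde2-KO, where the higher Nrde2-KO library lay just under the lower WT library. The log2 fold change of Srsf4 was -0.41 (SE 0.15, p 0.0152, adjusted p 0.0496). Without replicate 1 of Nrde2-KO 1 member passed, Srsf4 (adjusted p 0.0093). Srsf5 stood at 166 and 179 CPM in Nrde2-WT and 201 and 210.0 in Nrde2-KO, also separate, with 0.25 (adjusted p 0.0961, SE 0.11). The replicate block, not taken as pairing in this experiment, passed Srsf5 as higher (adjusted p 0.00883 in limma). The other 8 lay between -0.15 and 0.02.

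In the second experiment, with libraries of its own, 0 members passed in limma, 1 had an unadjusted p under 0.05, and edgeR and DESeq2 passed 0 and 0, and 7.44% of the 14889 genes tested were higher and 11.3% lower. Srsf4 stood at 80.5 and 65.3 CPM in Nrde2-WT and 54.2 and 50.8 in Nrde2-KO, again without overlap, and its log2 fold change was -0.46 (SE 0.15, p 0.00652, adjusted p 0.026). Srsf4 passed in a fit of only the compared libraries (adjusted p 0.00975) and with the replicate block (0.00901), which passed 12% of genes as higher and 16% as lower. Srsf3 had 0.23 (adjusted p 0.185, SE 0.13) and Srsf5 0.20 (adjusted p 0.202, SE 0.11). The other 7 members lay between -0.05 and 0.14. Srsf4 thus had the lowest estimate of the 10 in both experiments, and at this depth and with 2 libraries a group neither passed in the unblocked limma fit of all 20 libraries.

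**Figure D2:**
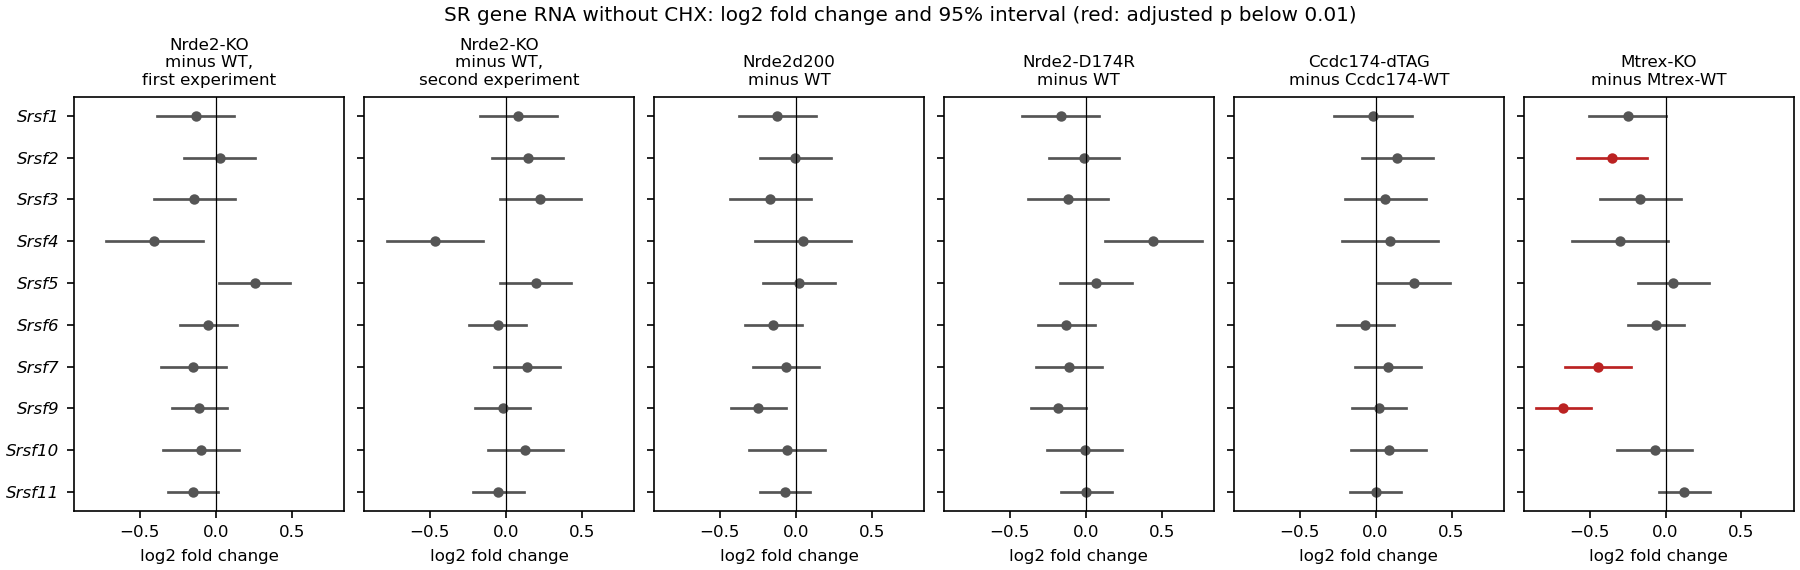
The log2 fold change of each member without CHX in 6 comparisons of RNA-seq groups, with points at the estimate, lines over the 95% interval and red where the adjusted p was below 0.01. Srsf4 has the lowest estimate in both Nrde2-KO experiments (-0.41 and -0.46), and Srsf9 is the lowest with Mtrex-KO (-0.67).

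The d200 and D174R lines were compared with the same Nrde2-WT libraries as the first Nrde2-KO experiment, so their values are given side by side without counting shared directions. In Nrde2d200 0 members passed in limma, 1 had an unadjusted p under 0.05, and edgeR and DESeq2 passed 0 and 0, and 3.22% of the 14889 genes tested were higher and 4.27% lower. Srsf9 stood at 62.6 and 70.9 CPM in Nrde2-WT and 57.1 and 55.2 in Nrde2d200, without overlap, with a log2 fold change of -0.25 (SE 0.09, p 0.0104, adjusted p 0.0589). In Nrde2-D174R 0 members passed in limma, 2 had an unadjusted p under 0.05, and edgeR and DESeq2 passed 0 and 0, and 0.262% of the 14889 genes tested were higher and 0.134% lower. Srsf4 stood at 59.3 and 48.5 CPM in Nrde2-WT and 76.0 and 70.4 in Nrde2-D174R, above both WT libraries, with 0.45 (SE 0.15, p 0.00853, adjusted p 0.138). Srsf4 itself had 0.05 in Nrde2d200, and Srsf9 -0.11 in Nrde2-KO and -0.18 in Nrde2-D174R. With CPM as deposited, genes higher and lower became 1122 and 896 in the first Nrde2-KO experiment, a higher share of 55.6% against 41.9% with size factors, and 447 and 333 in Nrde2d200 (57.3% against 43.0%).

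Among regulators of SR proteins, Srpk1, the kinase that drives their nuclear import, stood at 251 and 263 CPM in Nrde2-WT and 188 and 181 in Nrde2-KO of the first experiment. In the second it stood at 286 and 291 against 201 and 217. Nrde2-KO libraries lay below Nrde2-WT in both experiments, and Srpk1 fell, with log2 fold changes of -0.48 (adjusted p 0.00172, SE 0.10) and -0.46 (adjusted p 0.00211, SE 0.10). It was the only gene to pass among 12 of its list in either experiment, and none of the 12 passed in Nrde2d200 or Nrde2-D174R. Of 21 other SR and SR-related factors, Rnps1, a component of the exon junction complex, rose in the second experiment (0.35), and none passed in the first experiment, Nrde2d200 or Nrde2-D174R. Of the 17 other RNA-binding proteins, Ptbp2 (1.01 and 0.89) and Hnrnph1 (0.63 and 0.45) rose in both Nrde2-KO experiments, and 2 more fell in the second. Of 10 NMD factors 2 rose in each experiment, with Smg6, the endonuclease of NMD, at 0.82 and 0.65, and 1 rose in Nrde2d200. Of the 8 NMD substrates 1 rose in each Nrde2-KO experiment, and of 7 immediate early genes 1 rose in the second.

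Markers of 2C-like cells moved with NRDE2 loss: 6 of 7 were higher in the first Nrde2-KO experiment, 7 of 7 in the second and 3 of 7 in Nrde2d200. They summed to 3.25 and 2.43 CPM in Nrde2-WT, 34.9 and 23.7 in Nrde2-KO, 15.7 and 20.3 in Nrde2d200 and 2.00 and 3.62 in Nrde2-D174R of the first experiment, and to 6.86 and 7.04 in Nrde2-WT and 107 and 99.6 in Nrde2-KO of the second, with Zscan4d the most abundant. The mESC markers summed to 5598 and 5836 CPM in Nrde2-WT and 4305 and 4622 in Nrde2-KO of the first experiment, with 2 of 8 lower there and 1 lower in the second. Primitive endoderm markers had 2 higher in each Nrde2-KO experiment, among them Gata6 (1.78 in the first), and 1 higher in Nrde2d200, with sums of 12.1 and 12.7 CPM in Nrde2-WT and 22.4 and 19.2 in Nrde2-KO. Trophectoderm markers had 2 higher in each Nrde2-KO experiment, 1 in Nrde2d200 and 1 in Nrde2-D174R. Their part in the members' values was not tested.

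Loss of MTREX, a helicase that feeds RNA to the nuclear exosome, was compared in Mtrex-KO against Mtrex-WT. Srsf9, Srsf7 and Srsf2 fell, 3 lower of 10 members, while 28.5% of the 14889 genes tested were higher and 27.4% lower, a lower share close to the members'. Srsf9 stood at 58.5 and 58.9 CPM in Mtrex-WT and 38.6 and 35.0 in Mtrex-KO, well apart, with a log2 fold change of -0.67 (adjusted p 2.24e-06, SE 0.09). Srsf7 stood at 253 and 300.4 against 193 and 212 CPM, without overlap, with -0.44 (adjusted p 0.00101, SE 0.10). Srsf2 stood at 407 and 355 against 277 and 319.7 CPM, without overlap, with -0.35 (adjusted p 0.00963, SE 0.11). The other 7 lay between -0.30 in Srsf4 and 0.12 in Srsf11. The members' median was -0.21, beside 0.00 over all genes.

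The 2 Mtrex-KO libraries differed here too. Srsf1 stood at 615 and 823 CPM in Mtrex-KO against 816 and 876 in Mtrex-WT, with replicate 1 low and replicate 2 inside the WT range. Without Mtrex-KO replicate 1 only Srsf9 passed, against 3 members with all libraries, and without replicate 2 the count was 4. Without replicate 1 the adjusted p of Srsf7 was 0.0104 and that of Srsf2 0.0908. Srsf2 also lost its call without Mtrex-WT replicate 1 (0.111) and Srsf7 without Mtrex-WT replicate 2 (0.029). Fitted on only its own 4 libraries the count was also 1, and a pseudocount of 1 (0.01) and no filter on low values (0.0242) ended the call of Srsf2. Size factors of the Mtrex-KO libraries were 0.685 and 0.833. With CPM as deposited the median over all genes moved to -0.38, genes higher and lower became 2437 and 6434 (27.5% against 51.0% higher with size factors), and 8 members passed, all lower. The other 2, Srsf5 and Srsf11, turned from 0.05 to -0.35 and from 0.12 to -0.27 without passing on either scale.

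Other cell type markers moved with Mtrex-KO. Trophectoderm markers summed to 57.8 and 94.6 CPM in Mtrex-WT and 454 and 487 in Mtrex-KO, with 4 of 5 tested higher, Krt18 by 3.89, and with Krt8 the most abundant in Mtrex-WT and Krt18 in Mtrex-KO. The 2C-like markers summed to 14.7 and 4.56 against 282 and 100.3 CPM, with 7 of 7 higher, and those of primitive endoderm to 10.7 and 10.3 against 18.3 and 17.7, with 3 higher. The mESC markers summed to 6043 and 6198 against 4580.3 and 5445 CPM, with 3 of 8 lower. Primed epiblast and mesoderm markers had 2 lower and fibroblast markers 1 higher and 1 lower. Their part in the members' values was not tested. Of 21 other SR and SR-related factors 7 rose and 2 fell, with Srrm2, a scaffold of nuclear speckles, at 1.08 and Rsrc1 at -0.78. Regulators of SR proteins had 2 higher and 4 lower of 12, with Srpk1 at 248 and 287 CPM in Mtrex-WT and 133 and 170.2 in Mtrex-KO (-0.83). The 17 other RNA-binding proteins had 5 higher and 5 lower, the NMD factors 4 higher and 1 lower of 10, the NMD substrates 3 higher of 8 and the immediate early genes 4 higher and 1 lower of 7.

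Depletion of CCDC174 for 24 hours without CHX left 0 members that limma passed, 1 had an unadjusted p under 0.05, and edgeR and DESeq2 passed 0 and 0, while 1.14% of the 14889 genes tested were higher and 4.45% lower. The replicate block passed none of the members in limma either, and 3.8% of genes as higher and 7.6% as lower. Srsf5 stood at 249 and 299.7 CPM in Ccdc174-WT against 292 and 362 in Ccdc174-dTAG, which overlap, with 0.25 (adjusted p 0.168, SE 0.11). The other 9 lay between -0.07 and 0.14. Srpk1 stood at 317 and 310.5 CPM in Ccdc174-WT against 221 and 236 in Ccdc174-dTAG and fell, with -0.45 (adjusted p 0.00622, SE 0.10), the only gene of its list to pass. Of the NMD factors Smg6 rose (0.43), and 2 of 8 NMD substrates rose. None of the 21 other SR and SR-related factors passed, nor any of the 17 other RNA-binding proteins, and of 7 immediate early genes Atf3 was higher. The mESC markers summed to 4509.6 and 4845 CPM in Ccdc174-WT against 4472 and 4768 in Ccdc174-dTAG, most of all Nanog, with Klf4 higher and Tfcp2l1 lower. Primitive endoderm markers summed to 6.43 and 6.38 against 8.37 and 8.26, with Gata4 higher, and those of 2C-like cells to 3.15 and 5.69 against 3.32 and 8.59, with none passed. As above, their part in the members' values was not tested.

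Ribo-seq was read for the members' ribosome footprints in WT and Nrde2-KO cells. Srsf1, Srsf2, Srsf6, Srsf7 and Srsf10 fell in Nrde2-KO, 5 lower of 10 members, while 11% of the 13857 genes tested were higher and 14.2% lower. Srsf1 stood at 267 and 245 CPM in WT and 163 and 155 in Nrde2-KO, far apart, with a log2 fold change of -0.68 (adjusted p 9.02e-07, SE 0.08). Srsf6 stood at 211 and 218 against 143 and 144 CPM, also far apart relative to the replicates, with -0.58 (adjusted p 4.75e-06, SE 0.07). Srsf10 stood at 28.1 and 25.0 against 20.2 and 16.2 CPM. Srsf7 stood at 109.8 and 112 against 81.1 and 86.6 CPM. Srsf2 stood at 317 and 319 against 264 and 237 CPM. None of these 3 overlapped between groups, and their log2 fold changes in this order were -0.54 (adjusted p 0.00293, SE 0.13), -0.40 (adjusted p 0.000565, SE 0.08) and -0.34 (adjusted p 0.00145, SE 0.08). Srsf3 stood at 39.9 and 40.5 CPM in WT and 27.4 and 35.0 in Nrde2-KO, separate but not passed, with -0.37 (adjusted p 0.015, SE 0.11). Srsf9 overlapped between groups, at 48.1 and 47.3 against 53.9 and 41.1 CPM, with -0.02 (adjusted p 0.913, SE 0.11). The members' median was -0.36, beside 0.00 over all genes.

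**Figure D3:**
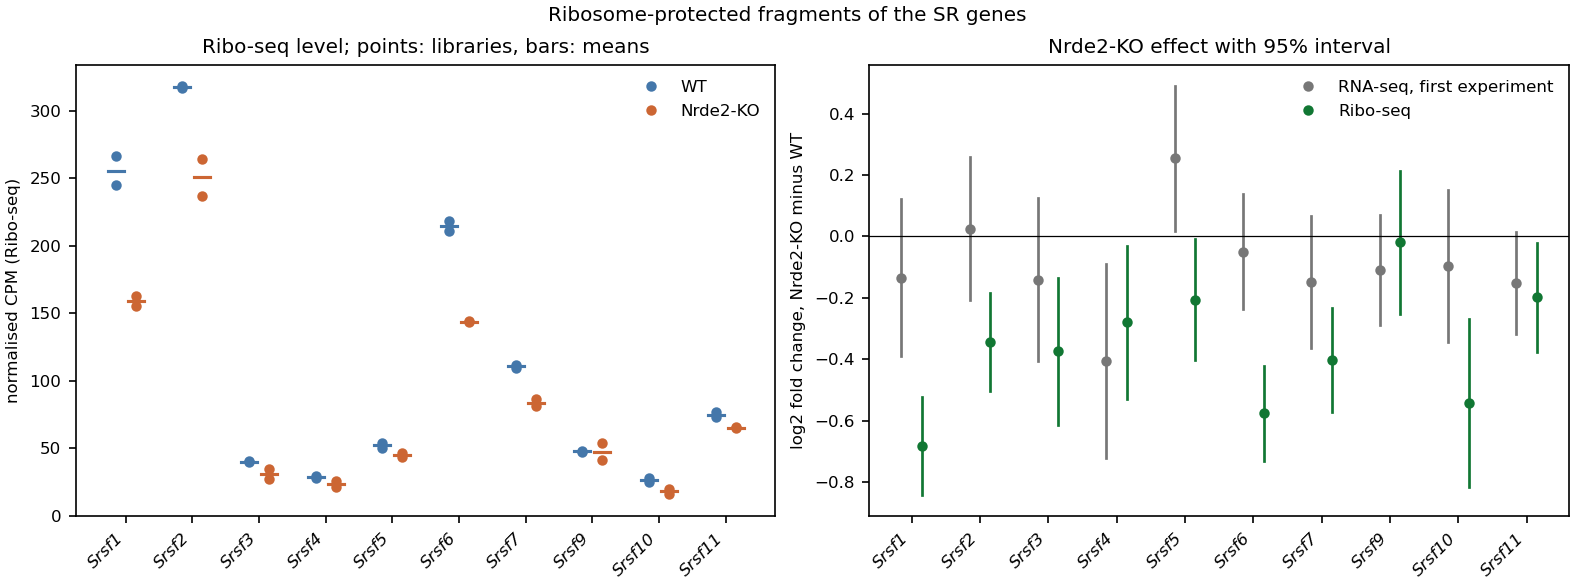
Left, Ribo-seq normalised CPM of each member in WT and Nrde2-KO, a point per library. Right, the log2 fold change of Nrde2-KO against WT in RNA-seq of the first experiment and in Ribo-seq with 95% intervals, where Srsf1 lies at -0.13 and -0.68.

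Without Ribo-seq Nrde2-KO replicate 2 Srsf2 (adjusted p 0.0361) and Srsf10 (0.0389) lost their calls, while Srsf3 gained one as lower (0.000339). Srsf10 also lost its call without WT replicate 1 (0.0212) and with DESeq2 (0.0644). On the deposited scale the median over all genes moved to 0.15, genes higher and lower became 1851 and 828 (69.1% against 43.7% higher with size factors), and only Srsf1 passed among the members, still lower (-0.53, adjusted p 0.00241). With no filter on low values only the calls of Srsf1 and Srsf6 remained. The 21 other SR and SR-related factors had 8 lower and a median of -0.19, with Rbm39 (-0.69), Rbm25 (-0.67), Luc7l (-0.67) and Tra2a (-0.65). Of the 17 RNA-binding proteins 9 fell, 3 of them Rbm39, Tra2a and Tra2b of both lists, with a median of -0.39. Of the regulators 4 fell, among them Srpk1 at 108 and 109 CPM in WT and 54.4 and 55.5 in Nrde2-KO with -0.98 (adjusted p 2.5e-08, SE 0.08). NMD factors had 1 higher and 1 lower, the NMD substrates 1 higher and the immediate early genes 1 lower of 9. The mESC markers summed to 2817 and 2869.7 against 2388 and 2319 CPM, with 1 higher and 2 lower. Otx2, a marker of primed epiblast, stood at 99.8 and 2.98 CPM in the Nrde2-KO Ribo-seq libraries, high in replicate 1 alone, and fibroblast markers summed to 6.63 and 7.18 against 14.7 and 12.4, with Col1a1 higher. Primitive endoderm markers summed to 4.29 and 2.66 CPM against 10.03 and 7.39, with 1 of 3 tested higher, and those of trophectoderm to 19.8 and 19.4 against 18.1 and 19.0, with 1 higher and 1 lower of 5. The 2C-like markers summed to 0.13 and 0.532 CPM in WT, where 4 of 7 were at 0, and 1.07 and 1.04 in Nrde2-KO, and none passed the filter. Their part in the members' values was not tested.

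Ribo-seq relative to RNA-seq was read in WT, with the RNA-seq of the first experiment. Levels are scaled within each assay, while the difference was fitted after scaling the 8 libraries of both assays together, so it does not follow from the levels alone. The members split: Srsf2, Srsf6 and Srsf9 were higher in Ribo-seq than in RNA-seq and Srsf1, Srsf3, Srsf5, Srsf7, Srsf10 and Srsf11 lower, 3 higher and 6 lower of 10, while 28.7% of the 14700 genes tested were higher and 32% lower. Srsf3 had the lowest ratio, at 282 and 306 CPM in RNA-seq and 39.9 and 40.5 in Ribo-seq, far below, with -1.94 (adjusted p 1e-08, SE 0.10), and 4.69% of all genes lay below it. Srsf10 followed at 107 and 118 CPM in RNA-seq and 28.1 and 25.0 in Ribo-seq, with -1.16 (adjusted p 1.37e-06, SE 0.11), and these were the only members with a log2 difference past 1. Srsf1 stood at 871 and 959 CPM in RNA-seq and 267 and 245 in Ribo-seq, with -0.91 (adjusted p 3.08e-07, SE 0.07). At the other end Srsf2 stood at 302 and 375 CPM in RNA-seq and 317 and 319 in Ribo-seq, close on these separate scales, with 0.85 (adjusted p 5.24e-06, SE 0.09) on the joint scale and 78.4% of all genes below it. Ribosome footprints come from coding bases, which differ between members as a share of exon bases, and the ratios are not corrected for this. Srsf3, Srsf10 and Srsf1, with the lowest ratios, also had the lowest coding shares of the members (6.23%, 12.1% and 13.9%). The highest shares were those of Srsf4 (41.4%) and Srsf9 (40.3%), while Srsf2, with the highest ratio, had 22.4%. The part of these shares in the ratios was not tested.

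Per kb of coding sequence the Ribo-seq level in WT was highest in Srsf2, at 478 and 480.4 CPM per coding kb, then Srsf1 (335 and 308), Srsf6 (208 and 215) and Srsf7 (154 and 157). On the same scale Srsf3 reached 81.1 and 82.4, above Srsf9 (72.2 and 71.1), Srsf5 (62.4 and 66.3) and Srsf11 (47.7 and 50.1), and Srsf10 (33.3 and 29.6) and Srsf4 (19.1 and 20.3) were lowest. Neighbours in this order did not overlap in their replicates. Directions between assays rest on the scaling: with CPM as deposited the median over all genes moved to -1.05, genes higher and lower became 1480 and 9386 (13.6% against 47.3% higher with size factors), and all 9 members that passed were lower. Srsf2 then had -0.17, Srsf6 -0.68 and Srsf9 -0.57. With RNA-seq of the second experiment as the partner, Srsf6 turned to -0.27 and Srsf2 had 0.20 (adjusted p 0.0687). RNA-seq of the second experiment also ended the call of Srsf9 (0.0415). The calls of Srsf6 and Srsf9 were lost with no filter on low values and without 1 of 3 libraries (adjusted p up to 0.0309 and 0.0414). Among the other SR and SR-related factors 4 were higher and 11 lower in Ribo-seq, among the other RNA-binding proteins 7 higher and 5 lower, and of the regulators of SR proteins 8 were lower. NMD factors had 3 higher and 4 lower, the NMD substrates 1 higher and 5 lower and the immediate early genes 4 higher and 1 lower of 7. Of cell type markers tested, 2 of mESCs, 2 of fibroblasts, 2 of primed epiblast and mesoderm and 1 of trophectoderm were higher in Ribo-seq, and 3 of mESCs, 3 of trophectoderm, 2 of 2C-like cells and 1 of primitive endoderm were lower.

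The test of whether Nrde2-KO acted differently on Ribo-seq than on RNA-seq took the Ribo-seq effect minus the RNA-seq effect of the first experiment. Srsf1 and Srsf6 were lower by this difference, 2 lower of 10 members, while 3.05% of the 14700 genes tested were higher and 1.8% lower. For Srsf1, RNA-seq stood at 871 and 959 CPM in WT and 832 and 834 in Nrde2-KO, a small separation beside that in Ribo-seq, and the difference of effects was -0.56 (SE 0.10, 95% interval -0.79 to -0.34, adjusted p 0.00561). For Srsf6, RNA-seq stood at 298 and 349.9 CPM in WT and 302 and 322 in Nrde2-KO, overlapping, and the difference was -0.54 (SE 0.11, 95% interval -0.78 to -0.30, adjusted p 0.00917). Srsf5 had -0.47 (adjusted p 0.0139, SE 0.11), Srsf10 -0.46 (adjusted p 0.0662, SE 0.15) and Srsf2 -0.38 (adjusted p 0.0728, SE 0.13). The remaining 5 lay between -0.27 in Srsf7 and 0.11 in Srsf4, and the members' median was -0.33, beside -0.01 over all genes.

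Both calls are close to the threshold. Without each of 7 of the 8 libraries 0 members passed in limma, the exception being WT RNA-seq replicate 2, and the adjusted p of Srsf1 ran from 0.00858 to 0.0252 and that of Srsf6 from 0.00611 to 0.0369. On the deposited scale 0 members passed in limma and genes higher and lower became 281 and 30 (90.4% against 62.9% higher with size factors), and with no filter on low values 0 passed as well. With RNA-seq of the second experiment 1 passed, Srsf1 (-0.80). With edgeR and with DESeq2 Srsf5 passed beside Srsf1 and Srsf6. Of other SR and SR-related factors, Luc7l (-0.80), Rbm25 (-0.65) and Rbm39 (-0.52) were lower, as were 3 RNA-binding proteins with Rbm39 among them. Of the regulators Srpk1 was lower, with -0.52 (adjusted p 0.00584, SE 0.09), as was 1 NMD factor, while the mESC marker Dppa5a and the fibroblast marker Col1a1 were higher.

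A comparison chosen after seeing the data set untreated Nrde2-WT of the second experiment against that of the first, which differ in experiment and not in genotype. Srsf2, Srsf5, Srsf6 and Srsf7 were higher in the second, 4 higher of 10 members, while 8.82% of the 14889 genes tested were higher and 7.41% lower. Srsf6 stood at 298 and 349.9 CPM in the first experiment and 482 and 526 in the second, wide apart, with 0.64 (adjusted p 9.16e-05, SE 0.09). Srsf2 stood at 302 and 375 against 496 and 580.4 CPM, with 0.67 (adjusted p 0.00034, SE 0.11), while Srsf5 had 0.65 (adjusted p 0.000473, SE 0.11) and Srsf7 0.54 (adjusted p 0.00103, SE 0.10). The members' median was 0.36, beside 0.02 over all genes. Without replicate 1 of the first experiment 1 member passed, Srsf6, and the calls of Srsf2 and Srsf7 were also lost without 1 library of the second (adjusted p 0.0105 and 0.0155). On the deposited scale 2 passed, and genes higher and lower became 444 and 1261 (26.0% against 54.3% higher with size factors). The other SR and SR-related factors had 8 higher and 1 lower of 21, the other RNA-binding proteins 10 higher and 1 lower of 17 and the NMD factors 5 higher of 10. Regulators of SR proteins had 2 higher and 1 lower of 12, the NMD substrates 1 higher and 2 lower of 8 and the immediate early genes 3 higher and 1 lower of 7. The mESC markers summed to 5598 and 5836 CPM in the first experiment against 5769 and 5582 in the second, most of all Tfcp2l1, with Esrrb higher. Trophectoderm markers summed to 77.2 and 86.4 against 90 and 77.7, most of all Krt8, with Eomes higher, and those of primed epiblast and mesoderm to 29.1 and 33.3 against 35.0 and 30.3, most of all Otx2, with Mixl1 higher. Here too their part in the members' values was not tested. Each Nrde2-KO effect above was read within its own experiment.

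Across the means of the 14 RNA-seq groups, which share lines and experiments, members were described by Pearson r on log2 levels. Srsf2 followed the mean of the other members most closely (r = 0.889), then Srsf7 (0.86) and Srsf3 (0.856). Srsf4 (0.147) and Srsf11 (-0.22) followed it least. The closest pairs were Srsf1 with Srsf3 (0.909) and Srsf2 with Srsf7 (0.904), and Srsf4 with Srsf11 had 0.511. Among 8994 genes that averaged 10 CPM or more, those outside the family most like the members' mean were Dhx15 (0.956), Mtmr2 (0.937), Krr1 (0.92), Mtdh (0.911) and Rad23b (0.907).

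In GRCm38 the members lie on 7 chromosomes. Srsf1 (ENSMUSG00000018379, chr11:88047373-88053755, plus strand) and Srsf2 (ENSMUSG00000034120, chr11:116849901-116853094, minus strand) share chromosome 11. Srsf3 (ENSMUSG00000071172, chr17:29032628-29043373, plus strand) and Srsf7 (ENSMUSG00000024097, chr17:80200080-80207307, minus strand) share chromosome 17. Srsf4 (ENSMUSG00000028911, chr4:131873617-131901706, plus strand) and Srsf10 (ENSMUSG00000028676, chr4:135855747-135869908, plus strand) share chromosome 4. Srsf5 (ENSMUSG00000021134, chr12:80945504-80950507, plus strand), Srsf6 (ENSMUSG00000016921, chr2:162931528-162937121, plus strand), Srsf9 (ENSMUSG00000029538, chr5:115327177-115333080, plus strand) and Srsf11 (ENSMUSG00000055436, chr3:158010473-158036639, minus strand) lie alone. Srsf4 overlaps a gene model on its own strand by 4610 bases and Srsf11 another by 2470 bases, and no gene on the same strand overlaps a poison exon. Whether these overlaps altered the read counts of Srsf4 and Srsf11 was not tested.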

How the data were processed

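The authors deposited CPM per gene, from STAR alignments to mm10 and featureCounts with GENCODE M23, for RNA-seq and Ribo-seq. Multiplying by each library's total gave reads, of which 100% lay within 0.1 of a whole number. CPM was divided by median-of-ratios factors, 0.25 was added and log2 taken. Genes averaging at least 0.5 CPM were fitted with limma 3.58.1 (R 4.3.3, lmFit and eBayes with trend), with Benjamini-Hochberg adjustment over all genes tested. Fits held 16 libraries for the CHX effects, 20 without CHX, 8 with CHX, 4 of Ribo-seq and 8 of both assays. Alternatives were edgeR 4.0.16 (quasi-likelihood, TMM), DESeq2 1.42.0, other pseudocounts and filters, CPM as deposited, a replicate block, only the compared libraries, each library left out, and RNA-seq of the second experiment. The 10 members are named throughout, from each gene list up to 4 passed genes per comparison with the largest change, and the 5 genes most like the members. The lists are other SR and SR-related factors, SR regulators, other RNA-binding proteins with unproductive splicing, NMD factors, NMD substrates, immediate early genes, and markers of mESCs, 2C-like cells, primitive endoderm, trophectoderm, primed epiblast and mesoderm, and fibroblasts. Replicates share only a number, which was taken to pair libraries in the 2 CHX experiments, where deviations of same-numbered libraries correlated at over 0.1 (0.12 to 0.38) in each of 6 pairs of groups per experiment. This was settled after the fits had been compared, so results with the block stand beside those without it. Members and lists were chosen with earlier results of these data known. 1 listed NMD factor is not reported here, and the 16 crosslinking libraries were not analysed.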

Additional observations from a re-analysis of the deposited data

Results flagged for a closer look

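Of the tests of whether an effect differs between groups, 2 passed for the members with all libraries, and limma passed 0 without each of 7 of the 8 libraries, with CPM as deposited or with no filter on low values (edgeR and DESeq2 passed 3 each with all libraries). The Nrde2-KO effect on Srsf1 was lower in Ribo-seq than in RNA-seq of the first experiment, with a difference of log2 fold changes of -0.56 (adjusted p 0.00561). For Srsf6 the same difference was -0.54 (adjusted p 0.00917).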

How the results depend on the processing

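Counts are members passed of 10 at an adjusted p below 0.01, with the count of the fit described above in brackets. Where no share or count over all genes is printed for an alternative setting, here or above, its count of members was not compared with one. A group left with 1 library was assumed to vary like the other groups. With each library left out in turn, the counts ran from 2 to 4 for CHX in Nrde2-WT (4), 4 to 8 in Nrde2-KO (8), 5 to 8 in Ccdc174-WT (8) and 7 to 8 in Ccdc174-dTAG (8). They ran from 0 to 1 for Nrde2-KO in the first experiment (0), 1 to 4 for Mtrex-KO (3), 1 to 4 between the WT libraries of both experiments (4), 0 to 1 for Nrde2-KO with CHX (2), 0 to 2 for Ccdc174-dTAG with CHX (0), 4 to 5 for Nrde2-KO in Ribo-seq (5), 7 to 9 for Ribo-seq against RNA-seq (9) and 0 to 2 for the difference of Nrde2-KO effects between assays (2).

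With the replicate number as a block, the count was 7 for CHX in Nrde2-WT (4). For Nrde2-KO it was 1 in the first experiment (0), namely Srsf5, and 1 in the second (0), namely Srsf4. The count was 4 for Nrde2-KO with CHX (2) and 4 for Ccdc174-dTAG with CHX (0). The block also passed Srsf3 for Nrde2-KO in Ribo-seq (adjusted p 0.0025), and Srsf4 for CHX in both Ccdc174 lines. In the CHX experiments it changed no other call of a named gene, and counts within the gene lists were not run with it. The labels give the replicates only a number: deviations of same-numbered libraries from their group means correlated across genes at -0.03 to 0.27 between groups of the first experiment, 0.41 between Mtrex-WT and Mtrex-KO and -0.03 in Ribo-seq, which was not taken as pairing. The cause was not tested.

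Fits of only the compared libraries gave 1 for Nrde2-KO in the second experiment (0), 1 for Mtrex-KO (3) and 1 for Nrde2-KO with CHX (2). No filter on low values gave 0 for Nrde2-KO with CHX (2), 2 for Nrde2-KO in Ribo-seq (5) and 0 for the difference between assays (2). CPM as deposited gave 8 for Mtrex-KO (3), 2 between the WT libraries of both experiments (4), 1 for Nrde2-KO with CHX (2), 1 for Nrde2-KO in Ribo-seq (5) and 0 for the difference between assays (2). DESeq2 gave 1 for Ccdc174-dTAG with CHX (0). A pseudocount of 0.1 gave 1, and RNA-seq of the second experiment 1, for the difference between assays (2).

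Signs turned in Ribo-seq minus RNA-seq in WT with CPM as deposited: Srsf2 to -0.17, Srsf4 to -0.97, Srsf6 to -0.68, Srsf9 to -0.57, Gadd45b to -0.26, Nanog to -0.59 and Sox2 to -0.60. With RNA-seq of the second experiment, Srsf6 turned to -0.27 and Junb to -0.12. In Mtrex-KO with CPM as deposited Snhg1 turned to -0.068, and Srsf5 (to -0.35) and Srsf11 (to -0.27) turned without a call in either fit. Over all named genes and settings, 6789 results kept their call or its absence. Of the others, 795 lost a call, 41 gained one and 10 turned sign with a call in either fit. Other signs turned without a call in either, among them Srsf9 for Nrde2-KO in Ribo-seq (-0.02 to 0.13). Counts within the gene lists were not run with the replicate block, and the causes of these shifts were not tested.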

Other observations

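The tables sum all transcripts of a gene, so no value here separates productive transcripts from those with a poison exon. Each group has 2 libraries, and a change common to most genes is removed by the size factors. NMD was not measured apart from CHX, which also stops translation of every other mRNA. The Ribo-seq cells are compared with RNA-seq of other libraries, and how the cultures of the assays relate is not given. Levels per kb use the union of annotated exons, not the isoforms present in these cells.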
